A study of Mus musculus with 6 samples.

Results

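The enzymes that make, break down and read cyclic AMP and cyclic GMP were examined in a ribosome pull-down from mouse thalamus. Members were all genes whose symbols name an adenylyl cyclase (Adcy), a soluble guanylyl cyclase subunit (Gucy1), a cyclic nucleotide phosphodiesterase of families 1 to 9 or 11 (Pde), or a subunit of protein kinase A (PKA; Prkaca, Prkacb, Prkar1a, Prkar1b, Prkar2a and Prkar2b). The rule used names alone and found 41 of 32531 gene rows, of which 36 had enough reads to be tested among 16496 genes. It leaves out Pde10a, given below with the wider pathway, and takes in Pde6d, which belongs by name although its protein binds prenyl groups and does not cleave cyclic nucleotides.

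Adult control mice of the line Slc17a6-EGFP/Rpl10a (JX883), left untreated, gave the thalamus tissue for all libraries. In translating ribosome affinity purification (TRAP), chosen cells make an EGFP-tagged protein of the ribosome, and anti-EGFP beads pull its ribosomes out of homogenised tissue. There were 3 IP libraries, made from the immunopurified RNA, and 3 Input libraries, numbered 1 to 3 in each group. The labels call the RNA of both groups ribosome-bound, Input included, and the animals of both carry the transgene. The line is called after Slc17a6, which encodes the glutamate transporter VGLUT2 of synaptic vesicles, and the labels give neither the number of animals per library nor the promoter fragment. No label says that the replicates came from separate animals. The p-values therefore rest on the spread among these libraries, which could be technical.

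Adenylyl cyclases make cAMP under the control of stimulatory and inhibitory G proteins and, in some isoforms, of calcium, while soluble guanylyl cyclase, a dimer of an alpha and a beta subunit, makes cGMP when nitric oxide binds it. Phosphodiesterases end both signals. Inactive PKA is a complex of regulatory and catalytic subunits, and cAMP binding to the regulatory subunits frees the catalytic ones. In thalamic relay neurons cAMP is also known to bind and shift the gating of HCN pacemaker channels.

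Gene reads per library were between 52068141 and 54421395 in IP and between 44081149 and 47340321 in Input. Levels are counts per 1e6 gene reads scaled with TMM factors (CPM), and 3 reads in 1 library correspond to between 0.0552 and 0.0608 CPM in IP and between 0.0614 and 0.0681 CPM in Input. Slc17a6 had 6489, 2193 and 2200 CPM in IP replicates 1, 2 and 3, against 3153, 875 and 477 CPM in Input replicates 1, 2 and 3, so it was higher in IP within each number while the groups overlapped. The 9 thalamic glutamatergic markers summed to between 6585 and 10863 CPM in IP and between 2299 and 6865 CPM in Input. In both groups the sum was highest in replicate 1. All 9 were detected in both groups. Slc17a6, 1 of the 9, made 6489 of the 10863 CPM in IP replicate 1, but 2193 of the 7202 CPM in IP replicate 2. The replicate order of the IP sums therefore rests on this gene. In Input replicate 1 it made 3153 of the 6865 CPM. Between pairs of IP libraries, the chi-square of gene counts per degree of freedom was 52.3 for replicates 2 and 3. It was 248 for replicates 1 and 2 and 255 for replicates 1 and 3, so replicate 1 was the most distant. By choroid plexus and ependymal markers, replicate 3 stood apart in both groups. In IP replicate 3 the 7 choroid plexus and ependymal markers summed to 46.0 CPM, which was 8.73 times the mean of IP replicates 1 and 2. In Input replicate 3 the 9 striatal markers summed to 4.15 times, and the choroid plexus and ependymal markers to 27.6 times, the mean of Input replicates 1 and 2.

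PKA subunit genes gave 4 of the 7 calls among the members. Of the 6 PKA genes, 4 passed the test with higher levels in IP, 0 were lower, and the IP values of all 6 lay above every Input value. The test was edgeR's quasi-likelihood test over all 16496 genes, at a Benjamini-Hochberg adjusted p under 0.05, and it called 9.60% of all genes higher and 15.6% lower in IP (25.2% in all). Over all 36 tested members the counts were 5 higher (13.9%) and 2 lower (5.56%), with a median log2 fold change of -0.02, beside -0.04 for all genes tested. IP values lay above every Input value for 9 members (25.0%) and below for 7 (19.4%), beside 19.9% and 25.0% of all genes (44.9% in all). The members as a whole were thus near the background, though the share called lower, on 2 genes, was smaller. At an unadjusted p under 0.05 the counts over the 6 PKA genes were 5 and 0, while DESeq2 and limma-voom each gave 4 and 0. Without Input replicate 3 edgeR called 3 of the 6 higher, and without IP replicate 3 it called 2. Without IP replicate 2 or Input replicate 2 it called 1, without both of these 0, and without both replicate 3 libraries 2. Of the 9 thalamic glutamatergic markers 5 were also higher in IP, and their part in the PKA values was not tested. Same-numbered libraries deviated together from their group means, so a fit with the replicate number as a block is given where it changes the call of a member. With the block 7 members (19.4%) were higher and 6 (16.7%) lower, against 15.9% and 19.2% of all genes (35.1% in all).

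**Figure D1:**
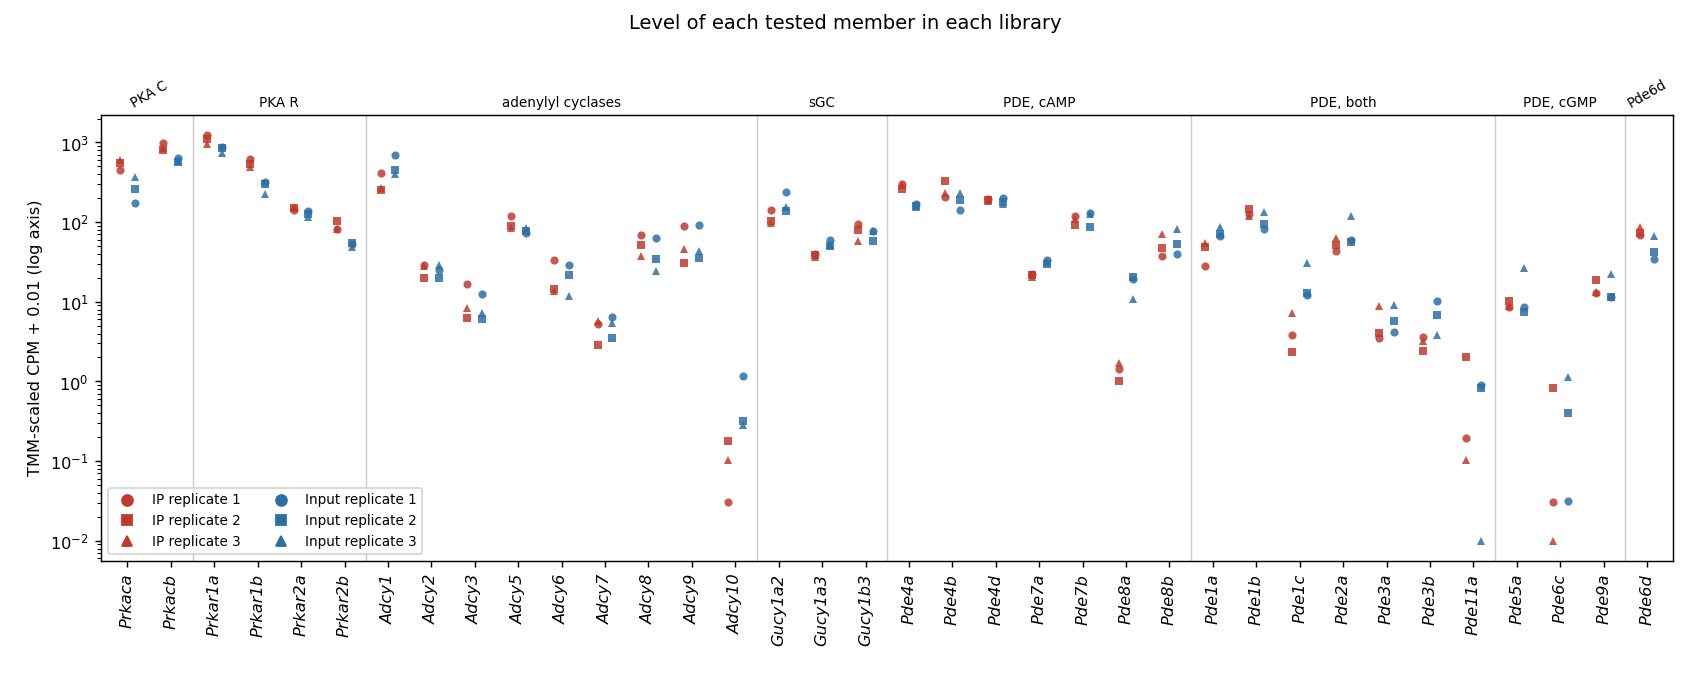
TMM-scaled CPM of the 36 tested members in each of the 6 libraries, on a log axis after adding 0.01, with IP left of Input for each gene and a marker shape for each replicate number. For the 6 PKA genes at the left all IP points lie above all Input points, while Pde8a and Pde1c show the reverse.

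Members were also compared by promoter sequence, since cAMP signalling acts on genes through the cAMP response element, written TGACGTCA, and its shorter form TGACG. The 250 bases before the RefSeq gene start (GRCm38.p6) were searched on both strands for 33 members with a matching entry. The full element was in 0 of these and in 1.55% of 32851 promoters of the same length, and the short form, which every full element contains, was in 8 members and in 17.8% of all promoters. Member promoters had a median GC content of 59.6% and a median of 13 CpG sites, beside 52.4% and 6 for all promoters. The sequences of Prkaca, Prkar1b, Pde4a, Pde8a and Pde1c are shown, the first 3 being the called members with the largest rise and the other two those called lower in IP, with TGACG or its reverse complement CGTCA in capitals.
Prkaca, chr8:83972728-83972977, plus strand: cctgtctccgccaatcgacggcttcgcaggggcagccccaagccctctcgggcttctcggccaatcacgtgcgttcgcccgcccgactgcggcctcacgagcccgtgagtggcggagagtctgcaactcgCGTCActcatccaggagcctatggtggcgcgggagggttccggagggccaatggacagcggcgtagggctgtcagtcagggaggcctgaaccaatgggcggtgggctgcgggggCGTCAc
Prkar1b, chr5:139150704-139150953, minus strand: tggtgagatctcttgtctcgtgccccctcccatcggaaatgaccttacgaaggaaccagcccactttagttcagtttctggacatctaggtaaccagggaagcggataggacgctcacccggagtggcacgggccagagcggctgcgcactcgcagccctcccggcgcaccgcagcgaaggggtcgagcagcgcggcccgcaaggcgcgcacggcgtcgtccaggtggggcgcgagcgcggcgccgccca
Pde4a, chr9:21165464-21165713, plus strand: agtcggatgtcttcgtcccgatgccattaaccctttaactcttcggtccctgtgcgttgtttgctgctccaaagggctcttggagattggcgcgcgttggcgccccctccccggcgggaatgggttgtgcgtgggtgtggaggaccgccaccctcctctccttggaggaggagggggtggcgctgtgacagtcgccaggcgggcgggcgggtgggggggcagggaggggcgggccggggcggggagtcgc
Pde8a, chr7:81213015-81213264, plus strand: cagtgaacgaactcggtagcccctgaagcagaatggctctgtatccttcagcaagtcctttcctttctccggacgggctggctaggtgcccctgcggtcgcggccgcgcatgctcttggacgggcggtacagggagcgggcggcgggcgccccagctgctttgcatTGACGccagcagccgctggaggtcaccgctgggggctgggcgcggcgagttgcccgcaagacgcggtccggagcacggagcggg
Pde1c, chr6:56362393-56362642, minus strand: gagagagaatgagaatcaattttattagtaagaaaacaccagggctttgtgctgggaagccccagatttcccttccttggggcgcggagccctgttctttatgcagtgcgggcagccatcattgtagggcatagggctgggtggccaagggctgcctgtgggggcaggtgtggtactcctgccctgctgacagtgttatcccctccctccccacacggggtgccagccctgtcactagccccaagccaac
Prkaca held the short form at 2 places, starting 120 and 6 bases before the gene start, and Pde8a at 1 place, 84 bases before it, while Prkar1b, Pde4a and Pde1c held none in this window. Pde1c spans positions 56069804 to 56569103 on the minus strand in GENCODE M21, so its window lies inside the gene. Windows of some other members, Pde4b and Pde7b among them, also lie inside their genes by that annotation. For these the RefSeq and GENCODE starts differ. The starts also differ for Prkaca, Prkar1b and Pde8a, at 83972993, 139150001 and 81213596 in GENCODE M21, each downstream of the window shown. Distances and absences given here therefore hold for the RefSeq start alone. The GC content was 68.8%, 67.2%, 68.8%, 68.8% and 58% in the order shown. The short form thus occurred both in a gene that was higher and in one that was lower in IP, and a match is a description of letters, not a site of binding.

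Prkaca encodes the catalytic subunit alpha of PKA. It had 455, 556 and 604 CPM in IP, against 173, 261 and 372 CPM in Input, for replicates 1, 2 and 3. Both groups were lowest in replicate 1 and highest in replicate 3, and they did not overlap. The log2 fold change, IP minus Input, was 1.0 ± 0.27 (SE; edgeR adjusted p = 0.0282). Leaving out IP replicate 2, IP replicate 3 or Input replicate 2 ended the call (edgeR adjusted p = 0.0842, 0.0885 and 0.0933), with log2 fold changes of 0.98, 0.92 and 0.98. The gene spans positions 83972993 to 83996443 of chromosome 8 in GENCODE M21 (GRCm38).

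Prkacb, the catalytic subunit beta, had 991, 802 and 854 CPM in IP, against 632, 566 and 592 CPM in Input. The lowest IP value exceeded the highest Input value by more than the range within Input. Prkacb thus gave a log2 fold change of 0.56 ± 0.16 (edgeR adjusted p = 0.0336). This call held without Input replicate 1 and ended without any other single library (edgeR adjusted p up to 0.129). Per kb of exon, Prkaca had 216 and Prkacb 101 CPM in IP, against 108 and 68.0 CPM in Input. That order depends on the length used: by the longest annotated transcript the ratio of Prkaca to Prkacb was 1.18 ± 0.27 in IP and 0.867 ± 0.339 in Input (SD, n = 3), against 2.19 ± 0.49 and 1.60 ± 0.63 by exon length. Under both lengths the ratio was higher in IP in 3 of 3 replicates, and the groups overlapped.

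Of the regulatory subunits, Prkar1b had the largest difference. Prkar1b encodes the regulatory subunit type I beta, known as the form largely restricted to the nervous system. It had 626, 535 and 498 CPM in IP, against 316, 305 and 227 CPM in Input. Every IP library lay above every Input library, and replicate 3 was lowest in both groups. The log2 fold change was 0.97 ± 0.19 (edgeR adjusted p = 0.00838), and the call held in 6 of 6 fits without 1 library (edgeR adjusted p up to 0.0309). Without both libraries of replicate 2 it ended (edgeR adjusted p = 0.103, log2 fold change 1.04).

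Prkar2b, the type II beta subunit, which anchoring proteins tether to membranes and cytoskeleton, had 82.3, 102 and 82.8 CPM in IP, against 52.4, 55.0 and 49.3 CPM in Input. The Input values were close together and all below the IP values. The difference, 0.77 ± 0.18 on the log2 scale, passed (edgeR adjusted p = 0.0160), and the call ended without IP replicate 2 or Input replicate 2 (edgeR adjusted p = 0.0760 and 0.0523). Prkar1a, the widely expressed type I alpha subunit, had 1235, 1114 and 950 CPM in IP, against 881, 860 and 732 CPM in Input. The groups did not overlap. Without the block the log2 fold change of 0.42 ± 0.17 missed the threshold (edgeR adjusted p = 0.111), and with it the value of 0.41 ± 0.12 passed (edgeR adjusted p = 0.0220). Prkar2a, the type II alpha subunit, had between 144 and 154 CPM in IP and between 116 and 138 CPM in Input, and passed in neither fit (log2 fold change 0.24 ± 0.16; edgeR adjusted p = 0.325).

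The regulatory subunits differed in their proportions between the groups. Of the summed reads per kb of exon of the 4 regulatory genes, Prkar1b held 33.2%, 31.2% and 32.9% in IP, against 25.7%, 25.5% and 22.9% in Input. Prkar1a held 57.7%, 57.3% and 55.3% in IP, against 63.1%, 63.4% and 65.0% in Input. The groups did not overlap for either gene. Prkar1a was the most abundant regulatory transcript in all 6 libraries under both lengths, followed by Prkar1b. The ratio of Prkar1b to Prkar1a was 0.571 ± 0.025 in IP and 0.387 ± 0.031 in Input (SD, n = 3), and by longest transcript 0.671 ± 0.029 and 0.455 ± 0.036. Prkar2a and Prkar2b each held between 4.44% and 6.96% in every library. Shares are given as a description, since 3 libraries against 3 cannot give an exact permutation p below 0.1. The ratios between subunits were chosen after values were seen. An annotated gene, Gm15672, overlaps exons of Prkar1b on the same strand, so reads shared with it may not have been counted.

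**Figure D2:**
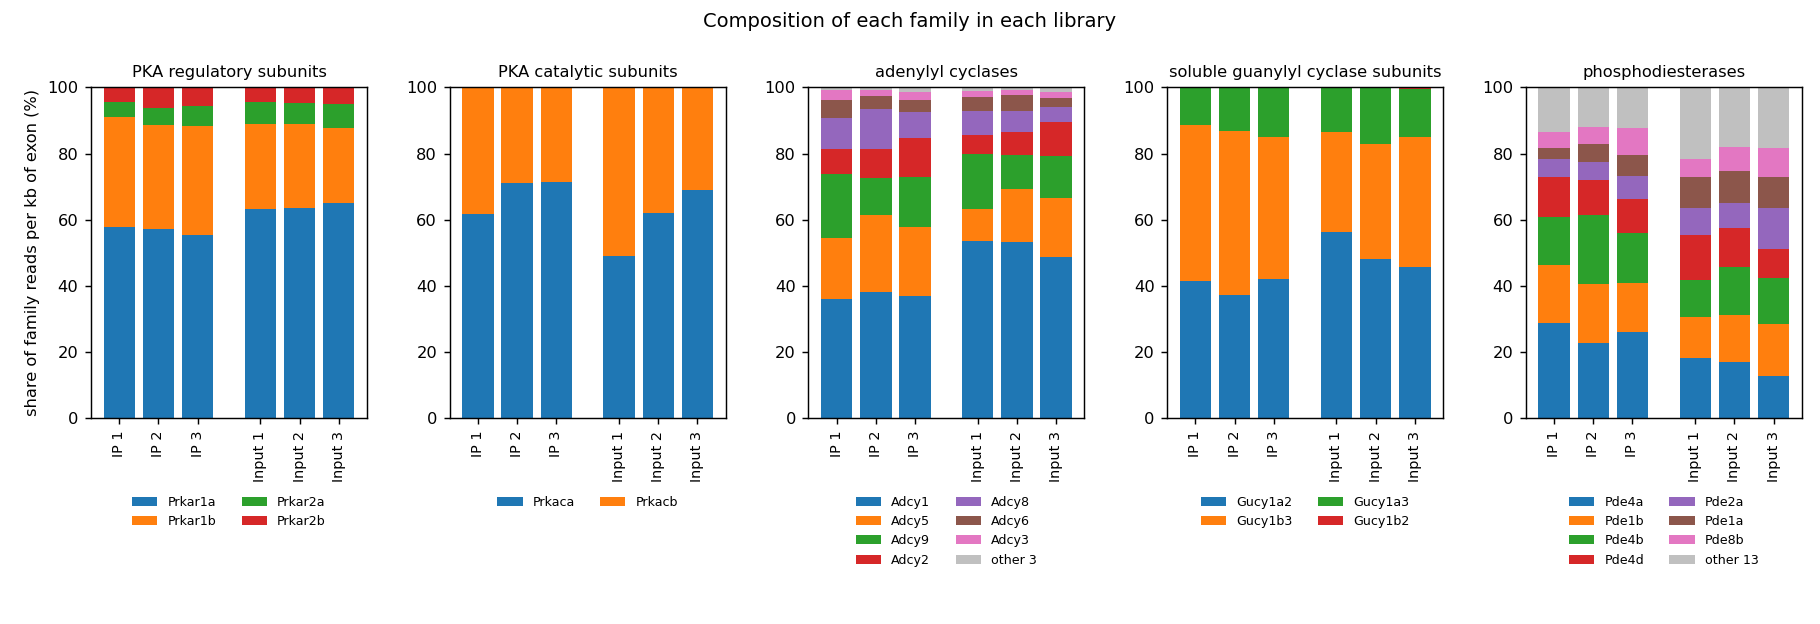
Share of each gene in the summed reads per kb of exon of its family, in percent, with 1 bar per library and IP bars left of Input bars. Prkar1b takes a larger share of regulatory subunit reads in IP (31.2% to 33.2%) than in Input (22.9% to 25.7%), and Adcy1 a smaller share of adenylyl cyclase reads (36.1% to 38.2% in IP, 48.6% to 53.6% in Input).

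No adenylyl cyclase passed the test. Of 9 tested genes edgeR called 0 higher and 0 lower. At an unadjusted p under 0.05 the counts were 0 higher and 2 lower, DESeq2 gave 0 and 1, limma-voom gave 0 and 0, and the block fit gave 0 and 1. The gene behind the last count was Adcy1, a calcium and calmodulin-stimulated cyclase of neurons. Adcy1 had 409, 256 and 266 CPM in IP, against 705, 446 and 399 CPM in Input. Within each replicate number IP was lower, with log2 ratios of -0.79, -0.80 and -0.59, but IP replicate 1 lay above Input replicate 3. The log2 fold change was -0.74 ± 0.27 (edgeR adjusted p = 0.0822), and the block fit gave -0.73 ± 0.13, past the threshold (edgeR adjusted p = 0.00186). Leaving out IP replicate 1 gave -0.98 and leaving out both replicate 1 libraries -0.69, both past the threshold (edgeR adjusted p = 0.0417 and 0.0228).

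Adcy1 was the most abundant cyclase per kb of exon in all 6 libraries. It held 36.1%, 38.2% and 37.0% of cyclase reads per kb in IP, against 53.6%, 53.2% and 48.6% in Input. Adcy5, a cyclase inhibited by calcium and best known from the striatum, came next on average in IP. It had 120, 89.5 and 85.4 CPM in IP, against 72.2, 76.7 and 84.9 CPM in Input, a log2 fold change of 0.33 ± 0.19 that missed the threshold (edgeR adjusted p = 0.245). The lowest IP value and the highest Input value, both in replicate 3, were almost equal. Adcy5 held 18.4%, 23.3% and 20.7% of cyclase reads per kb in IP, against 9.56%, 15.9% and 18.03% in Input.

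Several cyclases varied more between replicates than between groups. Adcy9, a broadly expressed cyclase, had 90.8, 30.8 and 45.8 CPM in IP and 91.6, 35.6 and 43.0 CPM in Input, so both replicate 1 libraries stood far above the others (log2 fold change -0.02 ± 0.46; edgeR adjusted p = 0.978). Adcy3, known from cilia and olfactory neurons, had 16.9, 6.19 and 8.41 CPM in IP and 12.6, 6.10 and 7.18 CPM in Input, again with replicate 1 highest in both groups (log2 fold change 0.28 ± 0.45; edgeR adjusted p = 0.692). Adcy8, the other cyclase stimulated by calcium and calmodulin, had 69.0, 52.0 and 37.2 CPM in IP and 63.0, 34.0 and 24.6 CPM in Input. It followed the same order in both groups, and its log2 fold change was 0.38 ± 0.37 (edgeR adjusted p = 0.491). The thalamic marker sum and the astrocyte marker sum were also highest in replicate 1 of both groups. In IP each order rested on 1 gene. Slc1a2 made 770, 418 and 288 of the 870, 533 and 420 CPM of the astrocyte sums in IP replicates 1, 2 and 3. Slc17a6 made most of the thalamic sum in IP replicate 1. The part of thalamic neurons or astrocytes in these cyclase levels was not tested.

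None of the remaining cyclases passed. Adcy2 and Adcy7, which G protein beta-gamma subunits can stimulate, had log2 fold changes of 0.06 ± 0.24 and -0.15 ± 0.44, and Adcy6, a calcium-inhibited form, one of -0.02 ± 0.43 (edgeR adjusted p = 0.876, 0.841 and 0.979). Adcy10, the soluble cyclase stimulated by bicarbonate, had only 15 reads in IP and 80 in Input over 3 libraries each (log2 fold change -2.58 ± 1.11; edgeR adjusted p = 0.124). Adcy4 was not tested for lack of reads. It had 0 reads in IP and 32 in Input, which is at least 12.05-fold lower in IP when the IP group as a whole is set at a floor of 3 reads.

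Soluble guanylyl cyclase subunits gave 0 calls in either direction among 3 tested genes by edgeR. The counts were 0 higher and 2 lower at an unadjusted p under 0.05, while DESeq2 gave 0 and 1, limma-voom 0 and 0, and the block fit 0 and 2. The lower pair were the alpha subunits. Gucy1a2, alpha 2, had 142, 102 and 97.7 CPM in IP, against 241, 136 and 154 CPM in Input, with overlap between the groups only through IP replicate 1. On the log2 scale the difference was -0.64 ± 0.26 (edgeR adjusted p = 0.107), and -0.61 ± 0.15 with the block, which passed (edgeR adjusted p = 0.00860). Gucy1a3, alpha 1, now named Gucy1a1, had 40.2, 38.2 and 36.4 CPM in IP, against 59.8, 50.6 and 51.4 CPM in Input. The groups did not overlap, and the log2 fold change of -0.49 ± 0.18 passed only with the block (edgeR adjusted p = 0.0805, and 0.0489 with the block).

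Gucy1b3, the beta 1 partner of both, now named Gucy1b1, had 95.2, 80.4 and 58.7 CPM in IP and 76.9, 58.1 and 77.6 CPM in Input. The groups overlapped, and the log2 fold change was 0.14 ± 0.23 (edgeR adjusted p = 0.701). The ratio of alpha to beta reads per kb of exon was 1.12, 1.02 and 1.33 in IP, against 2.29, 1.87 and 1.54 in Input, with every IP value below every Input value. By longest transcript the ratio averaged 1.82 ± 0.25 in IP and 3.01 ± 0.62 in Input (SD, n = 3). Gucy1b2, the beta 2 gene, was not tested, with 3 reads in IP and 37 in Input, of which 33 were in Input replicate 3.

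**Figure D3:**
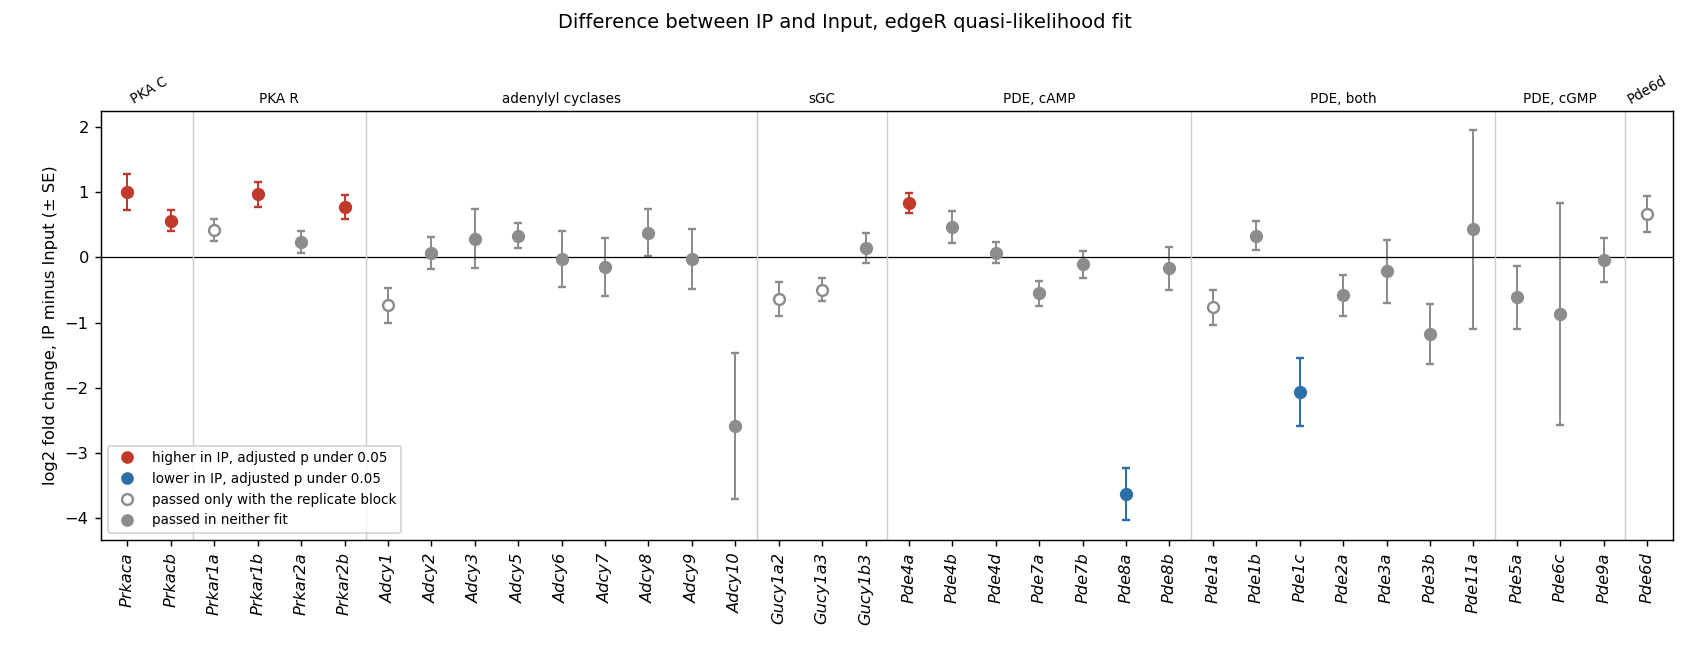
Log2 fold change of IP minus Input for the 36 tested members, with bars for the standard error of the edgeR quasi-likelihood fit. Filled red and blue points passed the test, and open points passed only with the replicate block. Prkaca, Prkacb, Prkar1b, Prkar2b and Pde4a were higher in IP, and Pde1c and Pde8a lower.

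Among phosphodiesterases 1 gene was higher in IP, Pde4a, and 2 were lower, Pde8a and Pde1c, of 17 tested (median log2 fold change -0.21). These shares, 5.88% and 11.8%, rest on 1 and 2 genes and were near the 9.60% and 15.6% over all genes. Pde4a encodes a cAMP-specific enzyme of the family that rolipram inhibits. It had 298, 262 and 293 CPM in IP, against 167, 159 and 154 CPM in Input. Values within each group were close together, and the groups lay far apart. On the log2 scale the difference was 0.83 ± 0.16 (edgeR adjusted p = 0.00721), and the call held in 6 of 6 fits without 1 library (edgeR adjusted p up to 0.0361). It ended without both libraries of replicate 2 (edgeR adjusted p = 0.112, log2 fold change 0.88). Pde4a was the most abundant phosphodiesterase member per kb of exon in 5 of 6 libraries, with 28.9%, 22.7% and 26.0% of the family in IP, against 18.1%, 16.8% and 12.7% in Input. By longest transcript it led in 2 of 6 libraries, IP replicates 1 and 3, with Pde4b ahead in IP replicate 2, Input replicate 2 and Input replicate 3, and Pde4d in Input replicate 1.

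The related Pde4b and Pde4d did not pass. Pde4b had 208, 333 and 231 CPM in IP and 140, 187 and 233 CPM in Input, with equal levels of the groups in replicate 3 and a log2 fold change of 0.47 ± 0.25 (edgeR adjusted p = 0.210). Pde4d had 196, 189 and 185 CPM in IP and 198, 177 and 167 CPM in Input, with a log2 fold change of 0.07 ± 0.16 (edgeR adjusted p = 0.789). Of all tested members its 6 libraries were the most alike. Pde4c had 0 reads in IP and 13 in Input, with 6, 7 and 0 in Input replicates 1, 2 and 3. Pooled over each group this is at least 4.89-fold lower in IP with the same floor. Input replicate 3, at 0 reads, did not differ from IP.

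Pde8a encodes a cAMP-specific enzyme of high affinity, and it had the largest difference of all tested members. It had 1.42, 1.02 and 1.67 CPM in IP, against 19.3, 20.6 and 10.9 CPM in Input. Even the lowest Input library was several times above the highest IP library. Its promoter is among those printed above. The log2 fold change was -3.63 ± 0.40 (edgeR adjusted p = 0.000695), and the call held in 6 of 6 fits without 1 library, with values between -3.85 and -3.45. It held without both libraries of each replicate number too. Its paralogue Pde8b had 37.8, 46.7 and 72.0 CPM in IP and 39.4, 53.6 and 83.1 CPM in Input. Both groups of Pde8b were lowest in replicate 1 and highest in replicate 3, and its log2 fold change was -0.17 ± 0.33 (edgeR adjusted p = 0.748). Per kb of exon Pde8b had 8.87 and Pde8a 0.339 CPM in IP, against 9.98 and 4.19 CPM in Input.

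Pde1c belongs to the calcium and calmodulin-stimulated enzymes that cleave both cyclic nucleotides. It had 3.85, 2.33 and 7.19 CPM in IP, against 12.03, 12.9 and 31.0 CPM in Input. Replicate 3 was highest in both groups, and no IP value reached an Input value. The log2 fold change was -2.06 ± 0.52 (edgeR adjusted p = 0.0215), and the call ended without IP replicate 1, IP replicate 2 or Input replicate 3 (edgeR adjusted p = 0.0643, 0.0690 and 0.0534), with log2 fold changes of -1.96, -1.75 and -1.47.

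Many marker genes of other cells were lower in IP too. The 8 oligodendrocyte markers summed to between 176 and 309 CPM in IP and between 3634 and 5307 CPM in Input, and 8 of 8 were called lower by edgeR. The 8 astrocyte markers summed to between 420 and 870 CPM in IP and between 1689 and 3203 CPM in Input, with 7 of 8 lower, and the 8 microglial markers to between 1.91 and 3.16 CPM in IP and between 43.7 and 70.8 CPM in Input, with 7 of 8 lower and Trem2 at 0 reads in IP. The 7 GABAergic markers summed to between 133 and 303 CPM in IP and between 1060 and 1595 CPM in Input, with 5 of 7 lower (7 with the block, which also gave 8 of 8 for astrocytes and for microglia). Of the other lists, 5 of 6 oligodendrocyte precursor, 5 of 7 habenula, 3 of 7 endothelial, 3 of 5 tested mural, 3 of 6 tested choroid plexus and ependymal and 1 of 9 striatal markers were lower. With the block, 5 choroid plexus and ependymal and 4 striatal markers were lower. The oligodendrocyte precursor, habenula, endothelial and mural counts did not change. The 7 tested cortical and hippocampal excitatory markers had 0 calls by edgeR without the block, DESeq2 or limma-voom and 0 at an unadjusted p under 0.05. The block fit called 2 of them higher and 1 lower. The part of any of these cells in the Pde8a and Pde1c values was not tested. In bulk RNA, a library with RNA from fewer cells of a type and one with less RNA from each cell cannot be told apart.

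Neither of the other family 1 genes passed without the block. Pde1b had 126, 147 and 119 CPM in IP and 81.5, 95.8 and 135 CPM in Input, so it was higher in IP in replicates 1 and 2 and lower in replicate 3 (log2 fold change 0.33 ± 0.22; edgeR adjusted p = 0.316). Pde1a had 28.4, 48.6 and 55.4 CPM in IP, against 66.7, 70.6 and 88.0 CPM in Input. The groups of Pde1a did not overlap, and its log2 fold change of -0.77 ± 0.27 passed only with the block, at -0.81 ± 0.19 (edgeR adjusted p = 0.0686, and 0.00737 with the block). Pde2a, an enzyme that cGMP stimulates, had 43.6, 51.8 and 62.7 CPM in IP and 60.4, 56.7 and 120 CPM in Input, with a log2 fold change of -0.58 ± 0.31 (edgeR adjusted p = 0.201).

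Input replicate 3 stood apart for several members. Of the 3 tested cGMP-selective genes 0 were called by edgeR, DESeq2, limma-voom or at an unadjusted p under 0.05. Pde5a, the cGMP-specific enzyme that sildenafil inhibits, had 8.54, 10.2 and 8.85 CPM in IP and 8.57, 7.35 and 26.3 CPM in Input. Over all libraries the log2 fold change was -0.61 ± 0.48 (edgeR adjusted p = 0.389), and 0.22 without Input replicate 3 (edgeR adjusted p = 0.622). Pde9a, a high-affinity cGMP enzyme, had 12.8, 18.5 and 13.2 CPM in IP and 11.6, 11.6 and 22.4 CPM in Input, with a log2 fold change of -0.04 ± 0.34, and 0.36 without that library (edgeR adjusted p = 0.950 and 0.378). In all, 15 of the 36 tested members had their highest Input level in Input replicate 3, and 19 had it in Input replicate 1. The share over all genes was not counted, so these counts do not set either library apart for the members as a whole. Prkaca, Pde1c, Pde2a and Pde4b were among the 15. The part of striatal or choroid plexus RNA in Input replicate 3 was not tested.

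Pde7a, Pde7b, Pde3a and Pde3b did not pass either. Pde7a, another cAMP-specific enzyme, had 22.1, 21.6 and 20.7 CPM in IP, against 33.4, 29.8 and 31.4 CPM in Input. Its groups were tight and separate, yet its log2 fold change of -0.55 ± 0.19 stayed above the threshold (edgeR adjusted p = 0.0673, and 0.0536 with the block). Pde7b had a log2 fold change of -0.11 ± 0.21 (edgeR adjusted p = 0.7503). The cGMP-inhibited enzymes Pde3a and Pde3b had values of -0.21 ± 0.49 and -1.18 ± 0.46 (edgeR adjusted p = 0.788 and 0.0964), and Pde3b passed without Input replicate 3 (log2 fold change -1.46; edgeR adjusted p = 0.0283).

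Phosphodiesterases of low count were uneven between libraries. Pde11a, a dual enzyme, had 122 reads in IP and 81 in Input over 3 libraries each, with 2.03 CPM in IP replicate 2 and at most 0.892 CPM elsewhere. Of the photoreceptor genes, the cone form Pde6c had 44 reads in IP and 69 in Input. The rod forms were not tested, Pde6a with 2 reads in each group and Pde6b with 29 in IP and 6 in Input. Pde6d, the prenyl-binding gene, had 68.9, 73.1 and 85.9 CPM in IP, against 34.0, 42.1 and 67.7 CPM in Input. The groups of Pde6d just failed to overlap, and its log2 fold change of 0.66 ± 0.27 passed only with the block, at 0.72 ± 0.18 (edgeR adjusted p = 0.105, and 0.0119 with the block). Leaving out Input replicate 3 gave 1.009, past the threshold (edgeR adjusted p = 0.0151), and leaving out both replicate 3 libraries 0.91 (edgeR adjusted p = 0.0406).

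**Figure D4:**
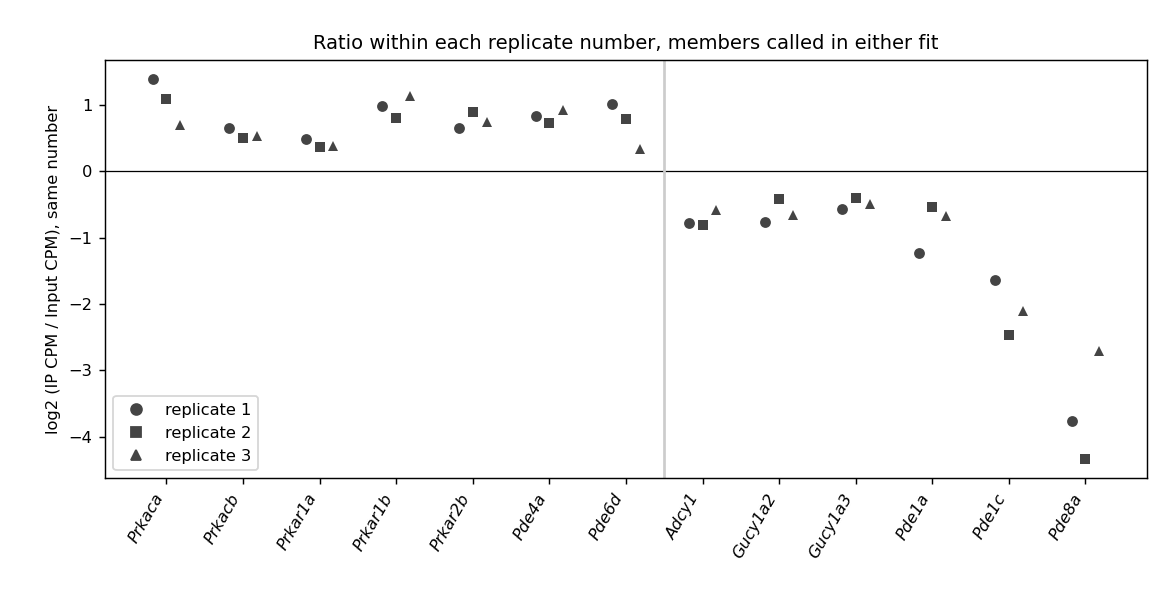
Log2 ratio of IP CPM to Input CPM within each replicate number for the 13 members called in the fit without or with the replicate block. All 3 ratios are above 0 for the 7 genes left of the line and below 0 for the 6 genes right of it, and Pde8a is the most distant, with -3.77, -4.34 and -2.70.

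Around the members, 63 other genes of the cyclic nucleotide pathways were listed by role, of which 54 were tested, 7 were higher and 8 lower, with a median log2 fold change of -0.23. The shares of 12.96% and 14.81% lay near the 9.60% and 15.6% over all genes. G protein alpha subunits that act on adenylyl cyclase were higher in 4 of 7 cases and lower in 0. Gnas, the stimulatory subunit, had 3676, 4655 and 4746 CPM in IP, against 2178, 2193 and 1882 CPM in Input, a log2 fold change of 1.06 ± 0.17 (edgeR adjusted p = 0.00344). Gnaz and Gnai2, inhibitory subunits, had log2 fold changes of 1.296 ± 0.24 and 0.82 ± 0.18 (edgeR adjusted p = 0.00618 and 0.0135). The Gnai2 call ended without Input replicate 2 (edgeR adjusted p = 0.0611).

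Of 3 protein kinase inhibitor genes, whose products block the catalytic subunits, 1 was higher by edgeR and 2 with the block, by DESeq2, by limma-voom and at an unadjusted p under 0.05. The first was Pkia, with 300.1, 316 and 412 CPM in IP, against 195, 183 and 263 CPM in Input (log2 fold change 0.68 ± 0.21; edgeR adjusted p = 0.0444). The second was Pkib, with a log2 fold change of 0.71 ± 0.23 (edgeR adjusted p = 0.0561, and 0.0205 with the block). Of 12 tested A-kinase anchoring proteins, which hold PKA at its sites in the cell, 0 were higher (also 0 at an unadjusted p under 0.05 and by DESeq2 and limma-voom) and 3 were lower by edgeR. The lower count was 6 at an unadjusted p under 0.05, 4 by DESeq2, 3 by limma-voom and 5 with the block, which added Akap5 and Akap11 (edgeR adjusted p = 0.0348 and 0.0479 with the block). The 3 were Akap13, Akap9 and Akap8, with log2 fold changes of -1.92 ± 0.24, -1.13 ± 0.21 and -0.86 ± 0.21 (edgeR adjusted p = 0.00130, 0.00603 and 0.0197). Akap13 had 22.0, 32.9 and 19.2 CPM in IP, against 94.5, 84.9 and 101 CPM in Input.

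Of 11 tested genes listed as other effectors of cyclic nucleotides, 1 was higher and 2 lower. Whether cyclic nucleotides act on each product was not tested. Rapgef4, the cAMP-activated exchange factor EPAC2, had 75.0, 63.6 and 72.4 CPM in IP, against 228, 157 and 233 CPM in Input, a log2 fold change of -1.55 ± 0.21 (edgeR adjusted p = 0.00160). Rapgef6 and Rapgef2 had values of -0.68 ± 0.18 and 0.51 ± 0.16 (edgeR adjusted p = 0.0243 and 0.0496). Of 6 genes of CREB transcription factors and their coactivators, Crem was higher and Crtc3 and Creb1 were lower, with log2 fold changes of 0.89 ± 0.21, -1.01 ± 0.31 and -0.62 ± 0.20 (edgeR adjusted p = 0.0174, 0.0418 and 0.0481).

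Among membrane guanylyl cyclases and nitric oxide synthases 1 of 7 was lower, Gucy2e, at -2.39 ± 0.61 (edgeR adjusted p = 0.0221), joined with the block by Npr2 (edgeR adjusted p = 0.0391), and 0 were higher (also 0 at an unadjusted p under 0.05 and by DESeq2 and limma-voom). Of 3 other phosphodiesterase genes 0 were called by edgeR, by DESeq2, by limma-voom or at an unadjusted p under 0.05. The most abundant, Pde10a, a dual enzyme of striatal neurons, had 161, 146 and 159 CPM in IP and 133, 158 and 386 CPM in Input (log2 fold change -0.54 ± 0.37; edgeR adjusted p = 0.320). Of 5 phosphatase inhibitors regulated by PKA, 0 were called by edgeR, against 2 higher and 1 lower at an unadjusted p under 0.05, 2 and 1 by DESeq2 and with the block, and 2 and 0 by limma-voom. Ensa, the most abundant, had a log2 fold change of 0.90 ± 0.31 (edgeR adjusted p = 0.0662, and 0.00148 with the block).

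Of these 15 pathway calls, those of Gnas, Gnaz, Akap13, Akap9 and Rapgef4 held without any 1 library. Creb1 and Rapgef2 lost theirs without each of the 6 (edgeR adjusted p up to 0.122 and 0.175). Without IP replicate 2 or Input replicate 2 the calls of Pkia, Akap8, Rapgef6, Crtc3, Crem and Gnao1 ended, without IP replicate 3 those of Pkia, Akap8, Rapgef6, Gucy2e and Gnao1, and without Input replicate 1 those of Pkia, Akap8 and Rapgef6. Crtc3 also lost its call without IP replicate 1 or Input replicate 3 (edgeR adjusted p = 0.112 and 0.0793), and Gucy2e without Input replicate 2 (edgeR adjusted p = 0.0542).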

How the data were processed

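RNA was sequenced from 3 IP and 3 Input libraries, grouped and numbered by their titles. The authors deposited raw read counts per gene, with 1 table for each library. The genome build mm10 and the tools STAR 2.0.0e and HTSeq come per the submitters' processing notes. Which annotation, counting mode and strand setting HTSeq used is not given in the sources used here. Summary rows and the row named unknown were left out of totals. Records at more than 1 place were 38.5% to 45.0% in IP and 23.6% to 27.2% in Input, and ambiguous ones 1.53% to 1.92% and 7.37% to 13.2%. Without a known strand setting, reads of Adcy2, Adcy3, Adcy6, Pde3a, Pde5a, Pde7a, Pde8b and Pde9a cannot be told from those of annotated genes overlapping them on the other strand; Pde2a and Gucy1a3 share exons with a gene on their own strand.

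Genes with few counts were removed by filterByExpr, libraries were scaled with TMM factors, and group was tested, two-sided, with edgeR 4.0.16 (R 4.3.3). The fit was checked on simulated counts. Each SE is that of a log2 fold change. Exon lengths and positions came from GENCODE M21. Floors cover counting error only, while each SE and SD includes the spread among libraries. Alternatives were other scalings and filters, DESeq2 1.42.0, limma-voom (limma 3.58.1), leaving out clone-accession features, the replicate block, and leaving out libraries.

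Deviations of log2(CPM + 0.5) from group means correlated between same-numbered libraries, by title, at 0.410, 0.181 and 0.216 across genes. Each exceeded 0.1, the bound set ahead of any comparison of calls for reading the numbers as pairs. Same-numbered libraries also share a lane number in the labels (3, 8 and 4). The labels state no paired test, so calls are those of the unblocked fit, with the block beside them. No libraries of a group agreed within sampling noise.

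Members, lists and tests were chosen with earlier results of these data known. Every member is named; values in all libraries are given at least for called members and the 2 most abundant of each role. Of the pathway lists, up to 3 called genes with the largest change are named, or the most abundant gene where none was called.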

Additional observations from a re-analysis of the deposited data

How the results depend on the processing

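Counts of members higher in IP stayed within 1.5 times of 5 under each scaling, filter and other tool run, and were 4 with library totals or upper-quartile factors. Counts of members lower in IP moved from 2 to 7 with DESeq2, 6 with the replicate block and 5 with upper-quartile factors. The added genes were Adcy1, Gucy1a3, Pde1a, Pde3b and Pde7a with DESeq2, Adcy1, Gucy1a2, Gucy1a3 and Pde1a with the block, and Adcy1, Gucy1a3 and Pde7a with upper-quartile factors; the cause was not tested. The block also added Prkar1a and Pde6d as higher and ended no call of a member. With the replicate block the count of all genes higher in IP was 2624, against 1583. Prkacb lost its call with library totals and upper-quartile factors (edgeR adjusted p = 0.0504 and 0.0578).

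Without 1 library or replicate number, members higher ranged from 0 to 5 and members lower from 1 to 2. Over all genes the total ranged from 734 to 4238, the higher from 83 to 1640 and the lower from 651 to 2598. The lowest counts came without both libraries of replicate 2, where only Pde8a among members passed. Without IP replicate 2 or Input replicate 2, 2 members were higher, and without IP replicate 3, 3 were; fewer libraries enter these fits. With the replicate block, pathway genes outside the members were 10 higher and 12 lower, against 7 and 8. Depth limits Adcy10, Pde11a and Pde6c and the 5 untested members.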
